A study of Mus musculus with 12 samples.

Results

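Expression of 10 genes that report on the activity of the ERK kinase pathway was followed in cultured mouse cardiac fibroblasts. The genes are the phosphatases Dusp4, Dusp5 and Dusp6, the Sprouty genes Spry1, Spry2 and Spry4, the Sprouty-related genes Spred1 and Spred2, and the ETS-family transcription factors Etv4 and Etv5. They were chosen by name, with earlier results of these data known. All 10 had at least 1 probe set assigned to that gene symbol alone, and they stand among 19938 genes measured in the same way. The cells were cardiac colony-forming-unit fibroblasts (cCFU-F) from hearts of C57BL/6 male mice aged 12 weeks, sorted as positive for SCA1 and PDGFRα and negative for CD31, and used as bulk cultures at passage P0. The 4 groups were untreated cells, cells given 50 ng/ml of the ligand PDGF-AB, and cells given the PDGF receptor kinase inhibitor AG1296 at 1 uM or at 10 uM, with 3 arrays each (12 arrays in all). No group received ligand and inhibitor together. The time of exposure, the vehicle, any serum in the medium and whether mice were pooled are in none of the labels, so an effect of a vehicle cannot be told apart from that of AG1296.

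ERK is the last kinase of a cascade that runs from receptor tyrosine kinases such as the PDGF receptors through Ras, Raf and MEK. Active ERK raises the transcription of its own inhibitors: dual-specificity phosphatases of the DUSP family remove phosphate from ERK, and Sprouty and SPRED proteins act upstream, at the level of Ras and Raf. Etv4 and Etv5, members of the PEA3 group of ETS factors, are likewise induced through ERK and activate transcription in turn. Because these transcripts respond quickly to the pathway, they are widely used as a readout of its output, although the array measures their mRNA and not the phosphorylation of ERK.

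The regions just upstream of the genes that responded are shown because these are where transcription factors downstream of ERK can bind. RefSeq start sites were at hand for 7 of the 10 genes (8 start regions, since Etv5 had 2). The 250 bases before the start are printed 5′ to 3′ on the strand of the gene (build GRCm38.p6) for the 4 genes with such an entry that differed between PDGF-AB and both doses of AG1296. Capitals mark matches to the CArG box, the element bound by serum response factor, and to GGAAG, a core bound by ETS factors, on either strand.
Dusp5, chr19:53528895-53529144, + strand: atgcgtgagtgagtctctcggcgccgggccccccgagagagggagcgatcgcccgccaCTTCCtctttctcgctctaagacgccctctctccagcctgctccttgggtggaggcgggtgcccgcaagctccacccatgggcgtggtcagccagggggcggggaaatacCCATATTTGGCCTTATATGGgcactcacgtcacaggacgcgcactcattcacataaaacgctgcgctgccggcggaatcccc
Dusp6, chr10:99262981-99263230, + strand: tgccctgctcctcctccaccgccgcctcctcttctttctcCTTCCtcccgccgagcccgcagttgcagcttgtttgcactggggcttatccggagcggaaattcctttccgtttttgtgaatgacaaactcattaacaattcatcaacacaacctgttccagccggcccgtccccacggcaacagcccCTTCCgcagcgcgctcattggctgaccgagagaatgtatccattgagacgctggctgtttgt
Spry2, chr14:105896820-105897069, - strand: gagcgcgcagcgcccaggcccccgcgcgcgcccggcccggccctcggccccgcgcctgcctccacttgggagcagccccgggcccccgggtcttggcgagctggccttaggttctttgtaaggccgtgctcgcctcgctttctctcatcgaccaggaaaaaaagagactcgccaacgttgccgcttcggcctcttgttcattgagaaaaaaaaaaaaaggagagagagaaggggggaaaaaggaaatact
Spred1, chr2:117120821-117121070, + strand: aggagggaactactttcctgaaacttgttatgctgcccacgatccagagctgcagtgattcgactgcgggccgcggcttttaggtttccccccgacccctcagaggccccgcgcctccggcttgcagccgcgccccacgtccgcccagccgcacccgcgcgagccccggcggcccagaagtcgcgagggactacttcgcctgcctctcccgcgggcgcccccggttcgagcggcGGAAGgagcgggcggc
The Dusp5 region held 2 CArG boxes side by side, at bases 82 to 73 and 72 to 63 before the start. A CArG box was present in 1.47% of 32851 such regions in the table. GGAAG was found 1 time in Dusp5, 2 times in Dusp6, 1 time in Spred1 and not in Spry2, and 64.1% of all regions held it. The longer ETS core CCGGAA, which can overlap the shorter one, is in 12.0% of all regions. The AP-1 element TGANTCA is in 6.75%. The cyclic AMP element TGACGTCA is in 1.55%. A search of both strands gave no match to these last 3 motifs in the 8 regions. A match is a stretch of letters and does not show that a factor was bound.

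Values are log2 expression per probe set, so a difference of 1 is a 2-fold change, and the level of one gene cannot be set against that of another. Array medians lay between 4.38 and 4.48, and the correlation across genes between arrays of a group was 0.992 to 0.996. The array PDGF-AB replicate 1 had the lowest mean correlation with arrays of other groups (0.990) and held the highest value of the 12 arrays for 7 of the 10 genes. All 8 endothelial markers lay below the median of all genes in every group, as did 7 of 8 cardiomyocyte markers and at least 7 of 8 leukocyte markers, whereas 9 of 10 fibroblast markers lay above it, Lum being the exception. Of 6 epicardium markers 4 lay above the median in every group, and of 8 pericyte and smooth muscle markers 2 did, Notch3 and Cnn1. Differences were tested with limma in 1 fit of all 12 arrays (two-sided). A call below means that p, adjusted by Benjamini-Hochberg over all genes, was under 0.05. Shares of all genes given below include dim genes, whereas the means of the 10 genes ranked between the 64.8 and 96.6 percentile of all genes. The labels do not say whether arrays of a group came from separate cultures or mice, so p-values measure the spread between these arrays. In bulk RNA, fewer cells of a kind and less RNA per cell cannot be told apart.

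The 10 genes divided into 6 that differed among the groups and 4 that were called in no test. An F test across groups called 6 of the 10 genes (Dusp4, Dusp5, Dusp6, Spry2, Spred1 and Etv4), where 5% of all genes were called. Because the genes were chosen with earlier results of these data known, counts set against all genes are descriptions. For 5 of the 6 the order of group means was PDGF-AB, untreated, AG1296 10 uM and AG1296 1 uM from high to low. Dusp6 had the same order with the inhibitor doses exchanged. Spry1 ran the other way, and Spry4, Spred2 and Etv5 had orders of their own.

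**Figure D1:**
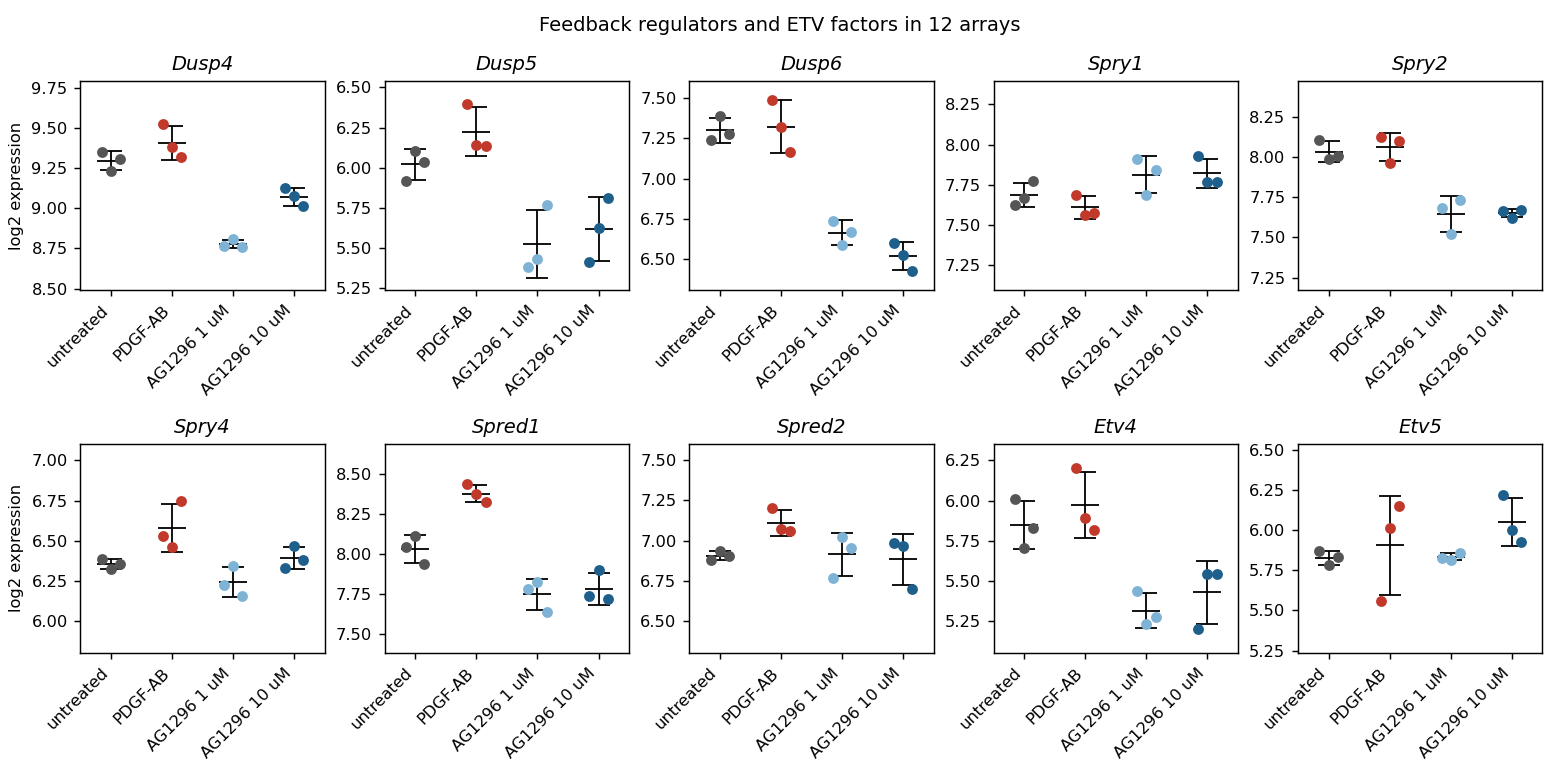
Log2 expression (y axis, a span of 1.3 in every panel) of the 10 genes in each array, grouped by treatment (x axis); points are arrays 1 to 3 from left to right, and bars give the mean ± SD of 3 arrays. Dusp4, Dusp5, Dusp6, Spry2, Spred1 and Etv4 lay lower in all AG1296 arrays than in every untreated or PDGF-AB array. Spry1, Spry4, Spred2 and Etv5 did not. The share of all genes that lay lower in this way was not computed.

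Dusp6, the cytoplasmic phosphatase that inactivates ERK, was the member most lowered by the inhibitor at either dose. It measured 7.24, 7.39 and 7.27 in the untreated arrays and 7.49, 7.32 and 7.16 with PDGF-AB. It measured 6.74, 6.59 and 6.67 with AG1296 at 1 uM and 6.60, 6.53 and 6.43 at 10 uM. The untreated and PDGF-AB arrays overlapped each other, and all 6 inhibitor arrays lay below both. Against untreated, Dusp6 fell by 0.64 ± 0.10 on the log2 scale (SE, n = 3; limma adjusted p = 0.00198) at 1 uM and by 0.78 ± 0.10 (adjusted p = 0.000647) at 10 uM, a level 1.72-fold lower. With PDGF-AB it was 0.66 above AG1296 1 uM (adjusted p = 0.000875) and 0.81 above AG1296 10 uM (adjusted p = 0.000232). These 4 calls held without any 1 array and under every other alternative tried (adjusted p up to 0.0135). PDGF-AB against untreated differed by 0.024, with a 95% interval from -0.19 to 0.24.

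Dusp4, a nuclear phosphatase of ERK and other MAP kinases, fell most at the lower dose. Its values were 9.35, 9.23 and 9.30 in untreated cells, 9.52, 9.38 and 9.32 with PDGF-AB, 8.77, 8.81 and 8.76 at 1 uM and 9.12, 9.08 and 9.01 at 10 uM. The 4 groups separated into PDGF-AB with untreated, then 10 uM, then 1 uM, with no array of one tier reaching the next. At 1 uM Dusp4 fell by 0.52 ± 0.08 (SE; limma adjusted p = 0.00256), a call that held under all 20 alternatives. At 10 uM the difference was -0.23 (95% interval -0.40 to -0.05) and did not pass (adjusted p = 0.277). The step between doses, 0.29 higher at 10 uM, did not pass either (adjusted p = 0.232), except with an intensity trend and robust moderation (adjusted p = 0.0200). PDGF-AB was 0.63 above AG1296 1 uM (adjusted p = 0.000295). It was 0.34 above AG1296 10 uM (adjusted p = 0.0406), but that call was lost without any 1 array other than PDGF-AB replicate 3 (adjusted p 0.0555 to 0.137).

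Dusp5, a nuclear phosphatase selective for ERK, varied more between arrays than the other phosphatases. It measured 5.92, 6.11 and 6.04 in untreated cells, 6.40, 6.14 and 6.13 with PDGF-AB, 5.38, 5.43 and 5.77 at 1 uM and 5.42, 5.62 and 5.81 at 10 uM. All inhibitor arrays lay below all untreated arrays, and all PDGF-AB arrays above them. Its changes against untreated, -0.49 at 1 uM (limma adjusted p = 0.0581) and -0.40 at 10 uM (adjusted p = 0.182), did not pass. The first passed without AG1296 1 uM replicate 3 (adjusted p = 0.0256) or PDGF-AB replicate 1 (adjusted p = 0.0484). It also passed with array weights, with dim genes filtered out or with an intensity trend (adjusted p 0.0166 to 0.0204). Between PDGF-AB and AG1296 the gap was 0.70 ± 0.13 at 1 uM (SE; adjusted p = 0.00465) and 0.61 ± 0.13 at 10 uM (adjusted p = 0.0169). The latter was lost without AG1296 10 uM replicate 1 or 2 or PDGF-AB replicate 1 (adjusted p 0.0597 to 0.0885).

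Among the Sprouty genes, whose products restrain Ras and Raf activation after receptor stimulation, Spry2 fell with the inhibitor. It measured 8.11, 7.99 and 8.01 in untreated cells, 8.12, 7.96 and 8.10 with PDGF-AB, 7.68, 7.52 and 7.74 at 1 uM and 7.67, 7.62 and 7.67 at 10 uM. No inhibitor array reached the range of the other 6, and the doses overlapped. The falls were 0.39 ± 0.09 (SE; limma adjusted p = 0.0266) at 1 uM and 0.38 ± 0.09 (adjusted p = 0.0389) at 10 uM. PDGF-AB was 0.41 above each dose (adjusted p = 0.0113 for 1 uM and 0.0168 for 10 uM). The size stayed between 0.32 and 0.46 in every alternative, but each of the 4 calls was lost in a fit of the 6 arrays alone (adjusted p 0.0655 to 0.0821). Single arrays mattered as well. The fall at 10 uM was lost without any 1 of the 6 arrays compared, without AG1296 1 uM replicate 1 or without PDGF-AB replicate 3 (adjusted p 0.0554 to 0.162). The fall at 1 uM was lost without AG1296 1 uM replicate 1, AG1296 1 uM replicate 2 or a single untreated array (adjusted p 0.0613 to 0.123). The difference of PDGF-AB from 1 uM was lost without AG1296 1 uM replicate 2 (adjusted p = 0.0635). The difference from 10 uM was lost without AG1296 10 uM replicate 1 or 2 or PDGF-AB replicate 1 or 3 (adjusted p 0.0578 to 0.0710).

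Spry1 and Spry4 passed in no comparison. Spry1 measured 7.62, 7.67 and 7.77 in untreated cells, 7.69, 7.56 and 7.58 with PDGF-AB, 7.91, 7.69 and 7.84 at 1 uM and 7.93, 7.77 and 7.77 at 10 uM. Its groups overlapped except PDGF-AB and AG1296 10 uM, where PDGF-AB was lower by 0.21 (95% interval of the difference -0.41 to -0.02; limma adjusted p = 0.308). The interval against untreated, -0.07 to 0.32 at 1 uM and -0.06 to 0.33 at 10 uM, does not reach the fall measured for Spry2. Spry4 measured 6.38, 6.32 and 6.35 in untreated cells, 6.53, 6.46 and 6.75 with PDGF-AB, 6.23, 6.34 and 6.16 at 1 uM and 6.33, 6.47 and 6.38 at 10 uM. All 3 PDGF-AB arrays lay above the untreated ones, a difference of 0.23 (95% interval 0.03 to 0.43; adjusted p = 0.521). Against AG1296 1 uM Spry4 was 0.34 higher with PDGF-AB (adjusted p = 0.0551). That difference passed with quantile normalization, array weights, dim genes filtered out or an intensity trend, and without PDGF-AB replicate 2 (adjusted p 0.0152 to 0.0448).

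Spred1, which encodes a membrane protein that recruits neurofibromin to switch Ras off, had the largest difference of the 10 between PDGF-AB and untreated cells. It measured 8.04, 8.11 and 7.94 in untreated cells, 8.43, 8.37 and 8.32 with PDGF-AB, 7.78, 7.83 and 7.64 at 1 uM and 7.74, 7.90 and 7.72 at 10 uM. The groups formed 3 tiers, with PDGF-AB on top, untreated between and both inhibitor doses at the bottom. The step from untreated to PDGF-AB was 0.35 ± 0.09 (SE; 95% interval 0.15 to 0.54) and did not pass over all genes (limma adjusted p = 0.204), except with an intensity trend and robust moderation (adjusted p = 0.0258). The steps down to 1 uM, -0.28 (adjusted p = 0.135), and to 10 uM, -0.25 (adjusted p = 0.270), did not pass either. The one at 1 uM passed with dim genes filtered out or with the intensity trend (adjusted p 0.0396 and 0.0288). Across the full span, PDGF-AB was 0.63 ± 0.09 above AG1296 1 uM (adjusted p = 0.000606) and 0.59 ± 0.09 above 10 uM (adjusted p = 0.0014), 1.55-fold and 1.51-fold, and both calls held under all 20 alternatives.

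Spred2, the relative of Spred1 with the same role in restraining Ras, was called in no comparison. Its brighter probe set measured 6.88, 6.93 and 6.91 in untreated cells, 7.20, 7.08 and 7.06 with PDGF-AB, 6.77, 7.02 and 6.96 at 1 uM and 6.99, 6.96 and 6.70 at 10 uM. By this probe set the PDGF-AB arrays lay above all 9 others. The differences were 0.21 against untreated (limma adjusted p = 0.605), 0.20 against 1 uM (adjusted p = 0.346) and 0.23 against 10 uM (adjusted p = 0.321). The second probe set had larger gaps of 0.32 and 0.46 for PDGF-AB against 1 uM and 10 uM, and these did not pass when all probe sets were tested (adjusted p = 0.193 and 0.0659). Its lowest PDGF-AB array (6.48) lay below the highest untreated array (6.52) and the highest 1 uM array (6.49), but above every 10 uM array.

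Etv4 followed the phosphatases. It measured 6.01, 5.71 and 5.83 in untreated cells, 6.20, 5.89 and 5.82 with PDGF-AB, 5.44, 5.23 and 5.27 at 1 uM and 5.20, 5.55 and 5.54 at 10 uM. All inhibitor arrays lay below all others, and PDGF-AB overlapped untreated. Etv4 fell by 0.53 ± 0.13 at 1 uM (SE; limma adjusted p = 0.0387), which was lost without any 1 of the 6 arrays compared (adjusted p 0.0512 to 0.165). At 10 uM it stood at -0.42 (adjusted p = 0.159). PDGF-AB was 0.66 above AG1296 1 uM (adjusted p = 0.00696), a call that held under all 20 alternatives, and 0.54 above 10 uM (adjusted p = 0.0337). The latter was lost without any 1 AG1296 10 uM array, without PDGF-AB replicate 1 or 2, and when only those 6 arrays were fitted (adjusted p 0.0509 to 0.149).

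Etv5 gave no clear reading, because its 2 probe sets disagreed. The brighter one (10363901), used by the rule, measured 5.87, 5.78 and 5.83 in untreated cells, 5.56, 6.01 and 6.15 with PDGF-AB, 5.83, 5.81 and 5.86 at 1 uM and 6.22, 6.00 and 5.93 at 10 uM. The other (10438626) measured 5.39, 5.47 and 5.38 in untreated cells, 5.49, 5.46 and 5.73 with PDGF-AB, 5.55, 5.77 and 5.52 at 1 uM and 5.41, 5.45 and 5.41 at 10 uM. Neither was called in any of the 6 comparisons. The brighter set was highest at 10 uM (0.22 above untreated; limma adjusted p = 0.594) and the other at 1 uM (0.20 above untreated; adjusted p = 0.415 with all probe sets tested), and they differed in sign for 10 uM against 1 uM and for PDGF-AB against each dose. Etv5 lies on chromosome 16. Of the 20 probe sets nearest in number to 10438626, 19 belong to genes on that chromosome, while all 20 around 10363901 belong to genes on chromosome 10. For the probe sets of the other 9 genes, at least 18 neighbours lay on the chromosome of the gene itself. Which transcript the brighter set reads was not tested.

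**Figure D2:**
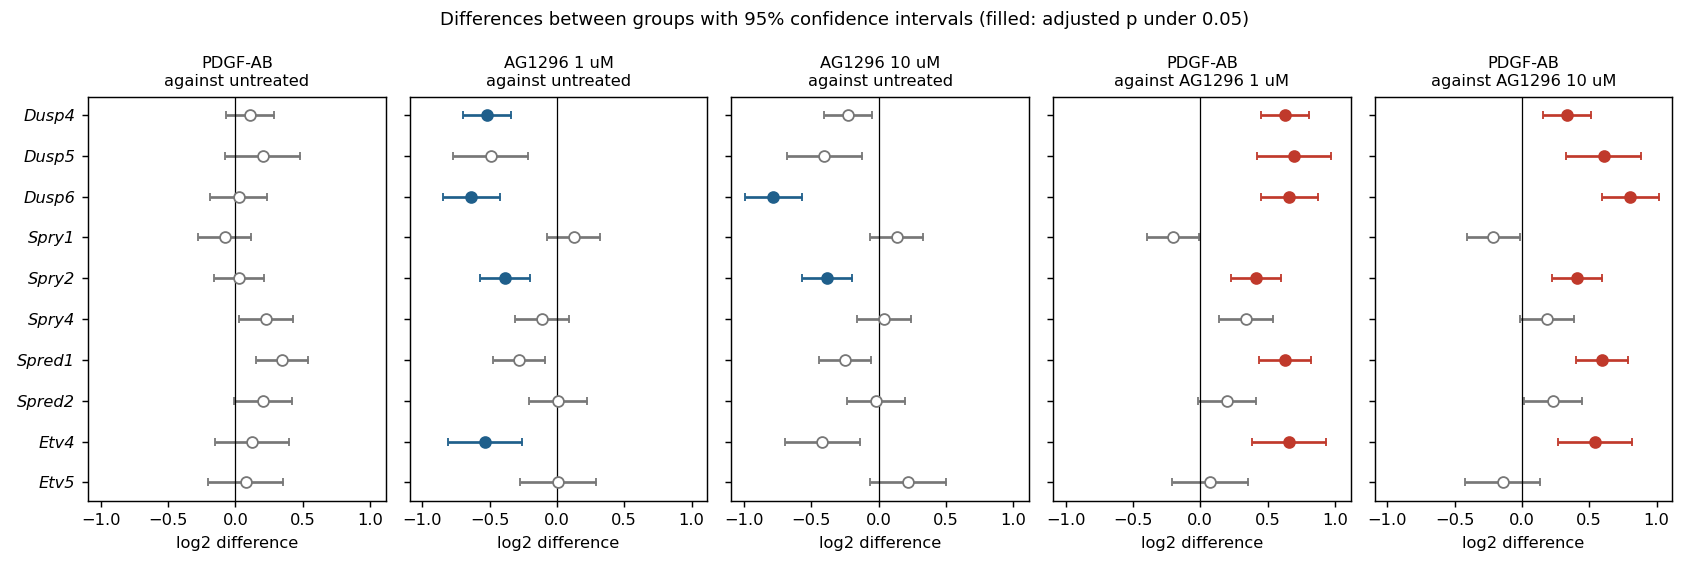
Log2 differences between groups (x axis; first-named group minus second) for each gene (y axis) with 95% confidence intervals from the limma fit of 12 arrays; filled points have an adjusted p under 0.05, red for higher and blue for lower. No point is filled for PDGF-AB against untreated, and 6 are filled for PDGF-AB against each dose of AG1296.

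Read by comparison, PDGF-AB against untreated called 0 of the 10 genes with limma, where 0.331% of all genes were called, and 2 (Spry4 and Spred1) had an unadjusted p under 0.05, as did 8.55% of all genes. The largest difference was 0.35 and the median 0.12, against 0.010 over all genes. Dusp5, Spry4, Spred1 and, by its brighter probe set alone, Spred2 lay higher in every PDGF-AB array than in any untreated one. This held for 6.74% of all genes. In the same arrays the 8 leukocyte markers had a mean of 3.38 to 3.51 against 3.22 to 3.32 in untreated cells. They did not move together: Cd53 was 1.77 higher (limma adjusted p = 0.00584), Tyrobp fell by 0.53 (adjusted p = 0.0240), and Ptprc, the defining CD45 gene, had a mean of 2.94 with PDGF-AB and 2.95 without. The part of Cd53 or the other markers in the values of the 10 genes was not tested.

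AG1296 at 1 uM lowered 4 of the 10 genes (Dusp4, Dusp6, Spry2 and Etv4) and raised 0 against untreated, where 1.33% of all genes were lower and 1.88% higher. The count was 2 (Dusp4 and Dusp6) without AG1296 1 uM replicate 1 or 2 or any 1 untreated array. At 10 uM 2 were lower (Dusp6 and Spry2), against 0.672% of all genes, and 0 higher, against 1.21%. Only Dusp6 was called there without any 1 of the 6 arrays compared, without AG1296 1 uM replicate 1 or without PDGF-AB replicate 3. At each dose 6 genes (the 3 phosphatases, Spry2, Spred1 and Etv4) lay lower in every inhibitor array than in any untreated one, while 10.2% of all genes did so at 1 uM and 8.19% at 10 uM. The medians over the 10 genes were -0.33 and -0.24, against -0.012 and 0.0075 over all genes. Etv5, by its brighter probe set alone, lay higher in every 10 uM array than in any untreated one, as did 9.78% of all genes. Its other probe set overlapped there (difference 0.0084). Both comparisons share the untreated arrays.

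The doses were not distinguished by any call. Between them 0 of the 10 genes were called with limma (0.376% of all genes were), and 1, Dusp4, had an unadjusted p under 0.05 (9.07% of all genes). Dusp4, and Etv5 by its brighter probe set, lay higher in every 10 uM array than in any 1 uM array, as did 8.88% of all genes. By its other probe set Etv5 lay lower in every 10 uM array than in any 1 uM array. The 95% intervals of the difference, 10 uM minus 1 uM, ran from -0.18 to 0.19 for Spry2, from -0.16 to 0.23 for Spred1, from -0.16 to 0.39 for Etv4, from -0.19 to 0.37 for Dusp5 and from -0.36 to 0.07 for Dusp6. For Spry2 a further fall of more than 0.18 at the higher dose lies outside that interval.

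PDGF-AB against AG1296 gave the most calls among the 10 genes. The same 6 genes were higher with PDGF-AB than with AG1296 1 uM and than with 10 uM, and 0 were lower, where 2.28% and 1.42% of all genes were higher and 2.93% and 2% lower. Without overlap, 8 genes were higher than at 1 uM (11.4% of all genes) and 7 than at 10 uM (8.47%), and Spry1 was lower than at 10 uM (9.59%). Spred2 was among the 8 by its brighter probe set alone, and among the 7 by both probe sets. The 2 comparisons share the PDGF-AB arrays. The medians over the 10 genes were 0.52 and 0.37, against 0.026 and 0.0035 over all genes. The 6 calls against 10 uM became 2 (Dusp6 and Spred1) without AG1296 10 uM replicate 1, without AG1296 10 uM replicate 2 or without PDGF-AB replicate 1, and 3 (Dusp5, Dusp6 and Spred1) in a fit of the 6 arrays alone.

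Averaged over the 10 genes after subtracting each gene's untreated mean, the 3 PDGF-AB arrays stood at 0.18, 0.09 and 0.11. The AG1296 1 uM arrays stood at -0.28, -0.30 and -0.26 and the 10 uM arrays at -0.21, -0.18 and -0.24. The untreated arrays stood at 0.011, -0.0062 and -0.0051, since they set the zero. These averages over all 10 genes are a description with no test.

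Relatives within a family were next compared inside each array, which removes anything that shifts both genes alike. This was done for 10 pairs over the 6 comparisons, with Etv4 set against each probe set of Etv5 and Spred1 against each of Spred2, and the comparison was added after the values were seen. With 3 arrays against 3, an exact permutation test (two-sided) cannot go below p = 0.1, a value reached by 28 of the 60 tests. The tests share arrays and genes, and the share for pairs of other genes was not computed, so this count has nothing to be judged against. After Benjamini-Hochberg adjustment none was under 0.05 (lowest 0.214). Only the change of a within-array difference between groups can be read, not its level.

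Within Sprouty, Spry1 minus Spry2 was -0.49, -0.32 and -0.24 in untreated arrays and -0.43, -0.40 and -0.52 with PDGF-AB, against 0.23, 0.16 and 0.10 at 1 uM and 0.26, 0.14 and 0.10 at 10 uM. All 6 inhibitor arrays lay above all 6 others. The shift from untreated was 0.51 at 1 uM and 0.52 at 10 uM (exact permutation p = 0.1 for each, the smallest possible). Spry1 minus Spry4 overlapped untreated at 1 uM and 10 uM (0.24 and 0.095, exact permutation p = 0.2 and 0.5). Spry2 minus Spry4 lay below untreated at 1 uM and 10 uM (-0.27 and -0.42, exact permutation p = 0.1 for each). Dusp4 minus Dusp6 was 2.11, 1.85 and 2.03 in untreated arrays, 2.03, 2.22 and 2.09 at 1 uM and 2.52, 2.55 and 2.58 at 10 uM. The 3 arrays at 10 uM lay above the others, by 0.56 from untreated and by 0.44 from 1 uM (exact permutation p = 0.1 for each), while the 1 uM and untreated arrays overlapped. Dusp4 minus Dusp5 overlapped in all 6 comparisons (10 uM against 1 uM 0.20, exact permutation p = 0.4). Dusp5 minus Dusp6 overlapped between doses (0.24, exact permutation p = 0.5). It lay above untreated at 10 uM (by 0.38) and with PDGF-AB (by 0.18, exact permutation p = 0.1 for each). Spred1 minus Spred2 was 1.16, 1.18 and 1.03 in untreated arrays, 1.23, 1.30 and 1.27 with PDGF-AB, 1.01, 0.80 and 0.68 at 1 uM and 0.75, 0.93 and 1.02 at 10 uM, so that with the brighter Spred2 probe set every PDGF-AB array lay above the others and every AG1296 array below the untreated ones. With the second Spred2 probe set the groups overlapped in all 6 comparisons (PDGF-AB against 1 uM 0.31 and against 10 uM 0.14; exact permutation p = 0.2 and 0.5). Etv4 minus Etv5 fell from untreated by 0.54 at 1 uM and by 0.64 at 10 uM with the brighter Etv5 probe set, and by 0.73 and 0.43 with the other (exact permutation p = 0.1 for each).

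**Figure D3:**
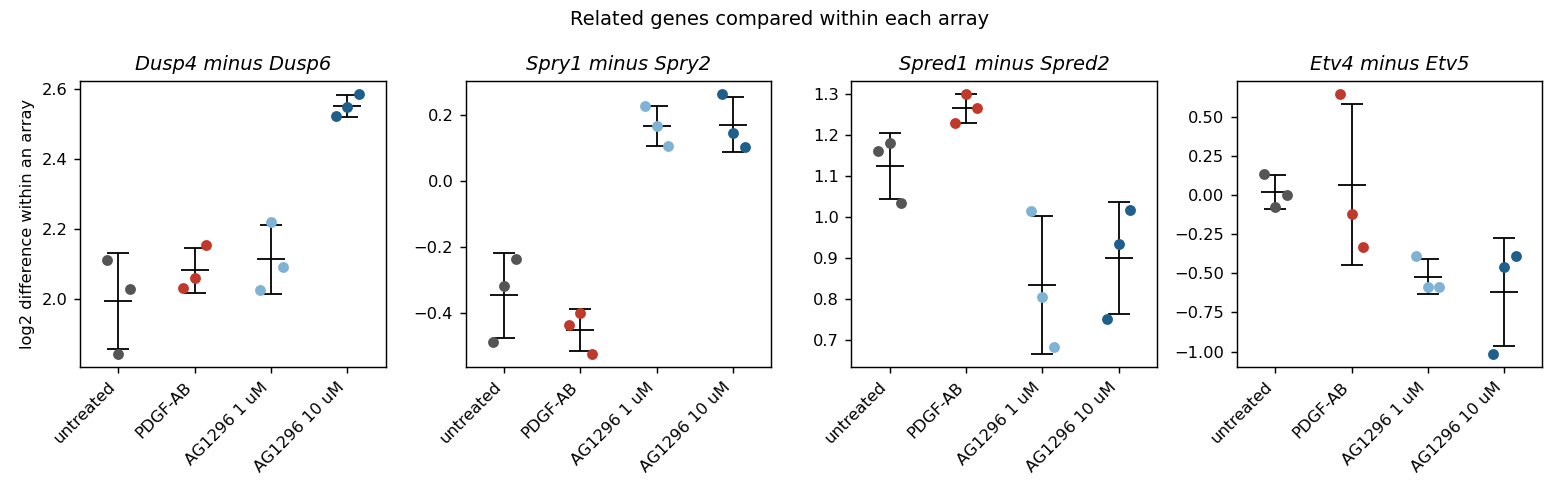
Difference in log2 expression between related genes within each array (y axis, own scale per panel) by group (x axis); points are arrays, bars give mean ± SD of 3 arrays, and Etv5 and Spred2 are their brighter probe sets. Spry1 minus Spry2 was higher in each of the 6 AG1296 arrays than in any of the other 6, and Dusp4 minus Dusp6 was highest in the 3 AG1296 10 uM arrays. Not all of the 10 pairs compared are shown.

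Other genes of the pathway are given as counts of calls, to be read against all genes. Of these, 2.28% were higher and 2.93% lower with PDGF-AB than with AG1296 1 uM, and 1.42% and 2% than with 10 uM. Against untreated, 1.88% were higher and 1.33% lower at 1 uM and 1.21% and 0.672% at 10 uM. PDGF-AB against untreated called 0.331% and the doses against each other 0.376%. The core cascade from the adaptors to ERK had 12 of 18 listed genes measured. With limma 0 of 12 were called in any comparison with untreated or between doses. Against PDGF-AB, 2 were higher with either dose of AG1296, namely Gab1, a docking protein of receptor signalling (by 0.57 at 1 uM, adjusted p = 0.00506, and 0.62 at 10 uM, adjusted p = 0.00386), and the kinase Braf (by 0.47, adjusted p = 0.00893, and 0.37, adjusted p = 0.0491). The median of the 12 for PDGF-AB minus AG1296 was -0.059 at 1 uM and -0.0055 at 10 uM.

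Of 23 other negative regulators of Ras and ERK signalling, 4 were higher and 1 lower with PDGF-AB than with AG1296 1 uM, and 4 higher and 0 lower than with 10 uM. Against untreated, 2 were lower at 1 uM, 1 was lower at 10 uM and 0 were higher at either dose. The lower one with PDGF-AB was Lrig3, at -0.35 (limma adjusted p = 0.0370), named after its value was seen. Spred3 and Sh2b3, named likewise, were higher with PDGF-AB than at 1 uM by 0.62 and 0.34 (adjusted p = 0.0108 and 0.0443). Against untreated Spred3 stood at -0.54 at 1 uM (adjusted p = 0.0356) and -0.42 at 10 uM (adjusted p = 0.153). Lrig1, a membrane protein that promotes loss of growth factor receptors, measured a mean of 6.18 in untreated cells, 6.58 with PDGF-AB, 5.70 at 1 uM and 5.83 at 10 uM. It fell by 0.47 at 1 uM (limma adjusted p = 0.0116), and PDGF-AB was above 1 uM by 0.87 (adjusted p = 4.34e-05) and above 10 uM by 0.75 (adjusted p = 0.000282). Cblb, a ubiquitin ligase for activated receptors, was 0.81 higher with PDGF-AB than at 1 uM (adjusted p = 0.000109) and 0.66 higher than at 10 uM (adjusted p = 0.000986). Errfi1, an inhibitor of EGF receptors, was 0.63 higher with PDGF-AB than at 10 uM (adjusted p = 0.00214) and 0.25 higher than at 1 uM (adjusted p = 0.216). Against untreated Errfi1 stood at 0.14 at 1 uM and -0.24 at 10 uM (adjusted p = 0.626 and 0.376). Dusp10, a phosphatase that prefers the stress kinases p38 and JNK, fell by 0.49 at 10 uM (adjusted p = 0.0111) and stood at -0.10 at 1 uM (adjusted p = 0.732).

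Of 14 other genes known to respond to ERK, 4 (Ccnd1, Plaur, Fosl1 and Phlda1) were higher with PDGF-AB than with both doses of AG1296. Named after their values were seen, Epha2 was higher than at 1 uM (by 0.51, limma adjusted p = 0.0103; 0.40 and 0.0568 at 10 uM), Hbegf was higher than at 10 uM (by 0.38, adjusted p = 0.0265; 0.0054 and 0.986 at 1 uM), and Lif was lower than at 1 uM (difference -0.68, adjusted p = 0.00132). Named likewise, Epha4, Ier3, Egr1, Myc, Etv1, Maff and Emp1 were called in no comparison. Against untreated, AG1296 lowered 3 of the 14 at 1 uM and 2 at 10 uM, and raised 0 at either dose. PDGF-AB raised 1 of the 14 against untreated and lowered 0. Fosl1, a subunit of AP-1, rose by 0.55 with PDGF-AB (limma adjusted p = 0.0480), fell by 0.43 at 1 uM (adjusted p = 0.0438) and was 0.98 (adjusted p = 4.74e-05) and 0.84 (adjusted p = 0.000282) higher with PDGF-AB than at 1 uM and 10 uM. Plaur, the urokinase receptor, fell by 0.62 at 1 uM (adjusted p = 0.00084) and by 0.80 at 10 uM (adjusted p = 0.000191). Ccnd1, the G1 cyclin, fell by 0.63 at 1 uM (adjusted p = 0.000296) and was 0.53 higher at 10 uM than at 1 uM (adjusted p = 0.00992). Dusp4, Dusp5, Spry2, Spred1 and Etv4 had the same order of dose means, with no call between doses. Phlda1 was 0.59 and 0.63 higher with PDGF-AB than at 1 uM (adjusted p = 0.00134) and 10 uM (adjusted p = 0.00111). Among 9 other ETS factors linked to ERK 0 were called in any of the 6 comparisons (limma).

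**Figure D4:**
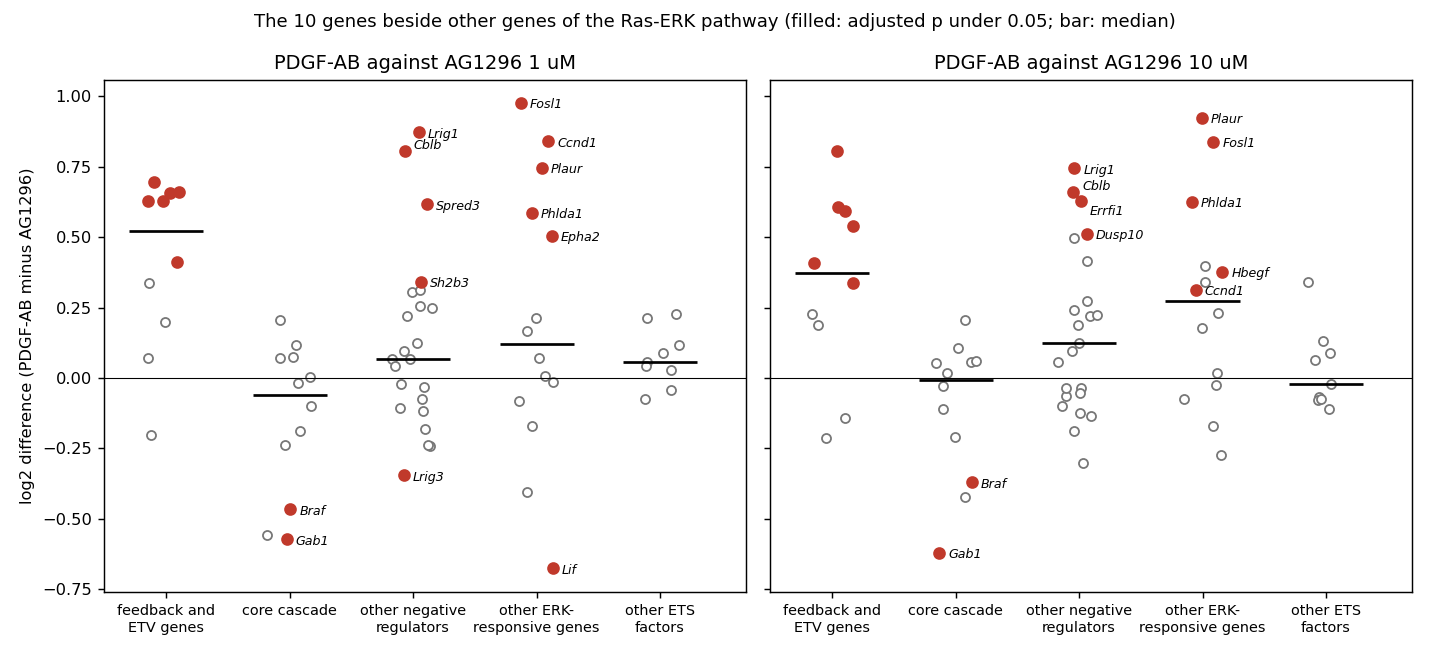
Log2 difference, PDGF-AB minus AG1296 (y axis), at 1 uM (left) and 10 uM (right) for the 10 genes and for 4 lists of other pathway genes (x axis); each point is a gene, filled points have an adjusted p under 0.05, and bars are medians. The 10 genes have medians of 0.52 and 0.37, and 6 filled points in each panel, all above 0.

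The transcript of the receptor itself moved in the same arrays. Pdgfra fell by 0.91 at 1 uM and by 0.40 at 10 uM (limma adjusted p = 3.84e-05 and 0.0361), and it was 0.51 higher at 10 uM than at 1 uM (adjusted p = 0.0282). Dusp4 had the same order of dose means (9.07 and 8.78, not called) and Dusp6 the opposite one (6.52 and 6.66, not called). Dusp5, Spry2, Spred1 and Etv4 had the order of Dusp4, also not called. Pdgfrb, the other PDGF receptor, stood 0.27 above untreated at 1 uM (adjusted p = 0.200) and 0.22 above at 10 uM (adjusted p = 0.399), named after its values were seen. Fgfr2, an FGF receptor, was 0.36 lower with PDGF-AB than at 10 uM (adjusted p = 0.0486). Of 13 measured genes of the cell cycle, 1 was called, Rrm2, higher at 1 uM than in untreated cells by 0.35 (adjusted p = 0.0391) and lower with PDGF-AB than at 1 uM by 0.31 (adjusted p = 0.0482). The part of either in the values of the 10 genes was not tested.

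The genes whose values over the 12 arrays lay closest to those of each called member were sought among 17050 named genes, by the root mean square difference after subtracting each gene's untreated mean. Plaur was nearest to Dusp6 (0.10 on the log2 scale, where Dusp6 itself departed from its untreated mean by 0.51), followed by Gsto1 (0.15), a glutathione transferase. Nearest to Dusp4 were Itga5, the integrin chain of the fibronectin receptor (0.068), and Tm4sf1 (0.074). Nearest to Spry2 were Srxn1, sulfiredoxin (0.059), and Slc35e4 (0.064). Fhl3, a LIM domain protein, was nearest to both Dusp5 (0.12) and Etv4 (0.13), followed by Snx9, a sorting nexin (0.13), for Dusp5 and Sncg, a synuclein (0.13), for Etv4. Gpr137b (0.074) and the chloride channel protein Clic1 (0.091) were nearest to Spred1. These members departed less from their own untreated means than Dusp6 did: 0.29 for Dusp4, 0.28 for Spry2, 0.36 for Dusp5, 0.37 for Etv4 and 0.26 for Spred1.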

How the data were processed

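RNA from 12 samples was labelled and hybridised to 1-colour arrays, per the labels' protocols. The authors deposited log2 expression per probe set, made with RMA (background subtraction, normalization across arrays and probe summary), per the submitters' processing notes, which also name limma; versions, settings and the genome build are not named there. The log base is inferred from the values, which fit a log2 scale. RMA compresses fold changes of dim probe sets.

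The deposited values were used with no further normalization. Of 28853 probe sets, 21789 had 1 gene symbol in the platform annotation, 1621 several and 5443 none; the last 2 kinds were left out. For 999 genes with several probe sets the brightest was kept, giving 19938 genes, with no filter on dim ones. limma 3.58.1 in R 4.3.3 fitted 1 mean per group over all 12 arrays, with empirical Bayes moderation (prior degrees of freedom 5.35, residual 8, median residual SD 0.15) and Benjamini-Hochberg adjustment within each comparison over all genes. The script was tested on simulated data. Python 3.11.15 with SciPy 1.17.1 ran the exact permutation tests.

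Every one of the 10 genes is named in each comparison. Of each pathway list up to 4 genes called in any comparison are named, by lowest adjusted p, and for each called gene the 2 nearest in pattern. The genes and lists were chosen with earlier results of these data known. The alternatives tried were all probe sets, a filter on dim genes, quantile normalization, median centring, an intensity trend with robust moderation, array weights, the replicate number as a block, the 6 arrays compared alone and leaving out each array. The second probe set of Etv5 and Spred2 was added after seeing the data.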

Additional observations from a re-analysis of the deposited data

How the results depend on the processing

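The 18 called differences of the 10 genes were recomputed 360 times in all: 307 kept direction and call, 53 lost the call and 0 changed sign. Among differences that were not called, 14 recomputed values passed and 36 changed sign. Counts of called members that moved were these. AG1296 1 uM against untreated gave 6 in place of 4 with dim genes filtered out and with an intensity trend (Dusp5 and Spred1 added), 5 with array weights and 3 with only the 6 arrays. PDGF-AB against 1 uM gave 7 in place of 6 (Spry4 added) with array weights, dim genes filtered out, an intensity trend or quantile normalization, and 5 with only the 6 arrays. AG1296 10 uM against untreated gave 1 in place of 2 with quantile normalization and with only the 6 arrays compared. PDGF-AB against AG1296 10 uM gave 3 in place of 6 with only the 6 arrays, and lost Dusp4 with array weights and with median centring (limma adjusted p = 0.0644 and 0.0692). With an intensity trend and robust moderation, 1 in place of 0 was called for PDGF-AB against untreated and for 10 uM against 1 uM. Leaving out 1 array at a time gave 2 to 5 for AG1296 1 uM against untreated, 1 to 2 for 10 uM against untreated, 2 to 5 for PDGF-AB against 10 uM and 5 to 7 for PDGF-AB against 1 uM, and 6 in the F test.

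Over all genes the counts were 66 for PDGF-AB, 375 for AG1296 10 uM and 639 for 1 uM against untreated, 75 between doses, and 682 and 1039 for PDGF-AB against 10 uM and 1 uM. With dim genes filtered out the first 5 became 133, 660, 989, 175 and 1032, and with an intensity trend 160, 686, 1010, 209 and 1077. With only the 6 arrays compared, the counts other than that for 1 uM against untreated became, in the same order, 7, 218, 14, 391 and 691. Array weights gave 146 between doses. Without 1 array the ranges were 21 to 62, 219 to 434, 349 to 718, 16 to 82, 455 to 627 and 696 to 1012. The cause was not tested.

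Signs changed for differences near 0 that were not called. With array weights, Dusp6 for PDGF-AB against untreated was -0.027, Spred2 was -0.038 at 1 uM and 0.012 at 10 uM against untreated and 0.050 between doses, and between doses Spry1 was -0.0015 and Spry2 -0.0090. With median centring Spry1 and Spry2 between doses were -0.019 and -0.024. With quantile normalization Etv5 and Spred2 at 1 uM against untreated were -0.026 and -0.015. With the second probe sets Spred2 there was -0.075, and Etv5 was -0.19 between doses, -0.058 for PDGF-AB against 1 uM and 0.13 against 10 uM. Without 1 array, ranges that crossed 0 between doses were -0.0077 to 0.21 for Dusp5, -0.022 to 0.074 for Spred1, -0.11 to 0.061 for Spred2, -0.055 to 0.057 for Spry1 and -0.059 to 0.048 for Spry2. For PDGF-AB against untreated they were -0.058 to 0.10 for Dusp6, -0.045 to 0.25 for Etv5 and -0.0043 to 0.077 for Spry2. For Etv5 they were -0.018 to 0.026 at 1 uM against untreated, -0.050 to 0.25 for PDGF-AB against 1 uM and -0.27 to 0.030 against 10 uM. For Spred2 against untreated they were -0.046 to 0.082 at 1 uM and -0.074 to 0.068 at 10 uM.

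The replicate number as a block gave 6 called members in each comparison of PDGF-AB with AG1296, 2 at 10 uM and 3 at 1 uM, where Etv4 was lost (adjusted p = 0.0500457). The labels state no pairing. Deviations from group means correlated at a median of 0.110 between same-numbered arrays (-0.031 to 0.298 over 18 pairs) and -0.034 between others, and 9 of 12 arrays were closest to one of their own number, a hint from the data only. The number of arrays limits the precision.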
